A study of Cyprinus carpio with 18 samples.

Results

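The troponin and tropomyosin genes of the common carp, Cyprinus carpio, were followed through embryonic development. They were taken as the protein-coding features whose deposited description names a troponin or a tropomyosin and no receptor. This gave 61 genes among 90808 features. By description, 31 encode troponin I, 12 troponin T, 7 troponin C and 11 tropomyosin. The troponin I genes are described as fast skeletal (15), slow skeletal (15) or cardiac (1). The troponin T genes are cardiac (7), slow skeletal (3) or fast skeletal (2). The troponin C genes are named for slow skeletal and cardiac muscle together (4), for skeletal muscle (2), or as fast skeletal type (1, tnnc2). The tropomyosins are alpha-1 (6), alpha-3 (1), alpha-4 (1) and beta (3) chains. Names such as LOC109064614 are those of the deposited table, and the digits after LOC are the NCBI gene identifier. Symbols in brackets come from the RefSeq annotation, which held 50 of the 61 genes and gave 14 of them a symbol of their own.

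Whole embryos and larvae of the FFRC No.2 strain, all of genotype WT (wild type) and with no agent named in the labels, gave 3 libraries for each of 6 stages. Cleavage embryos were taken 2 h after fertilization, blastocysts after 6 h, gastrulae after 12 h, embryos in organ formation after 20 h and hatching embryos after 64 h. Larvae were taken 1 day after hatching. The labels state that embryos came from natural spawning and that equal amounts of RNA were pooled within a stage. They do not say that the libraries of a stage came from separate clutches, so p-values measure the spread between libraries, which may be technical.

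Tropomyosin is a coiled coil that lies along the actin filament, and in striated muscle it carries the troponin complex. Troponin C binds calcium, troponin I holds the filament off from myosin in the absence of calcium, and troponin T ties the complex to tropomyosin. Vertebrates use separate genes for fast, slow and heart muscle, and teleost fish have further copies from genome duplication. Other tropomyosins serve the actin cytoskeleton of non-muscle cells, including that of the egg and early embryo.

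Library totals ran from 16326813 to 43270557 assigned reads. Levels below are counts per 1000000 reads (CPM) scaled by TMM factors, given for replicates 1, 2 and 3 in that order, unless RPKM, the deposited value per kilobase, is named. Changes are log2 fold changes from edgeR's quasi-likelihood test with Benjamini-Hochberg adjustment over 69265 features, and a gene rose or fell where the adjusted p was below 0.05. The SE of a change was derived from its log2 value and F statistic, and is rough for genes with few counts. Folds are ratios of stage mean CPM unless a stage had 3 counts or fewer, and can differ from the log2 change. Larva replicate 3 differed from the other larva libraries more than they did from each other (chi-square per degree of freedom 27.9 and 29.1 against 3.84). Larval calls are therefore given with and without it, and larval levels by library. Hatching replicate 2 also stood apart from hatching replicates 1 and 3 (17.2 and 15.0 against 3.72), which bears on the steps into and out of hatching. In bulk samples of whole animals, fewer cells of a type and less RNA per cell cannot be told apart. The carp genome is duplicated, and the labels do not say how reads matching more than 1 copy were counted. Where copies are near-identical, the value of each single copy is therefore uncertain.

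Until gastrulation nearly all of the level came from tropomyosin genes, and from organ formation on troponins made up a large part of it. Over all 61 genes the summed level was 409 ± 62.1 CPM in cleavage embryos (SD, n = 3 here and below), 419.7 ± 7.94 in blastocysts and 386 ± 8.44 in gastrulae, of which tropomyosins held 405 ± 62.3, 415 ± 7.72 and 367 ± 6.18 CPM. It was 1568 ± 101 CPM at organ formation, 6985 ± 823 at hatching and 11172 ± 1611 in larvae, or 10293 as the mean of larva replicates 1 and 2. The ranges of organ formation, hatching and larva did not overlap one another or the early stages. The near-level course from blastocyst to gastrulation depends on the scaling. In RPKM the mean sum over all 61 genes was 75.89 in cleavage embryos, 62.89 in blastocysts and 28.11 in gastrulae. Tropomyosins held 74.47, 61.46 and 24.96 RPKM of it. At cleavage 5 of the 61 genes had a mean of at least 10 CPM, and all 5 were tropomyosins. Summed troponin C was 0.168 ± 0.124 CPM at blastocyst, 11.2 ± 1.97 at gastrulation and 313 ± 16.6 at organ formation. Summed troponin I was 6.65 ± 0.904 CPM at gastrulation and 303 ± 24.7 at organ formation. Summed troponin T was 25.8 ± 0.915 CPM at organ formation, 696 ± 109 at hatching, and 1264, 1443 and 2006 in the 3 larva libraries. At organ formation no troponin T gene had a mean of 10 CPM, while 5 troponin I, 5 troponin C and 9 tropomyosin genes did.

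**Figure D1:**
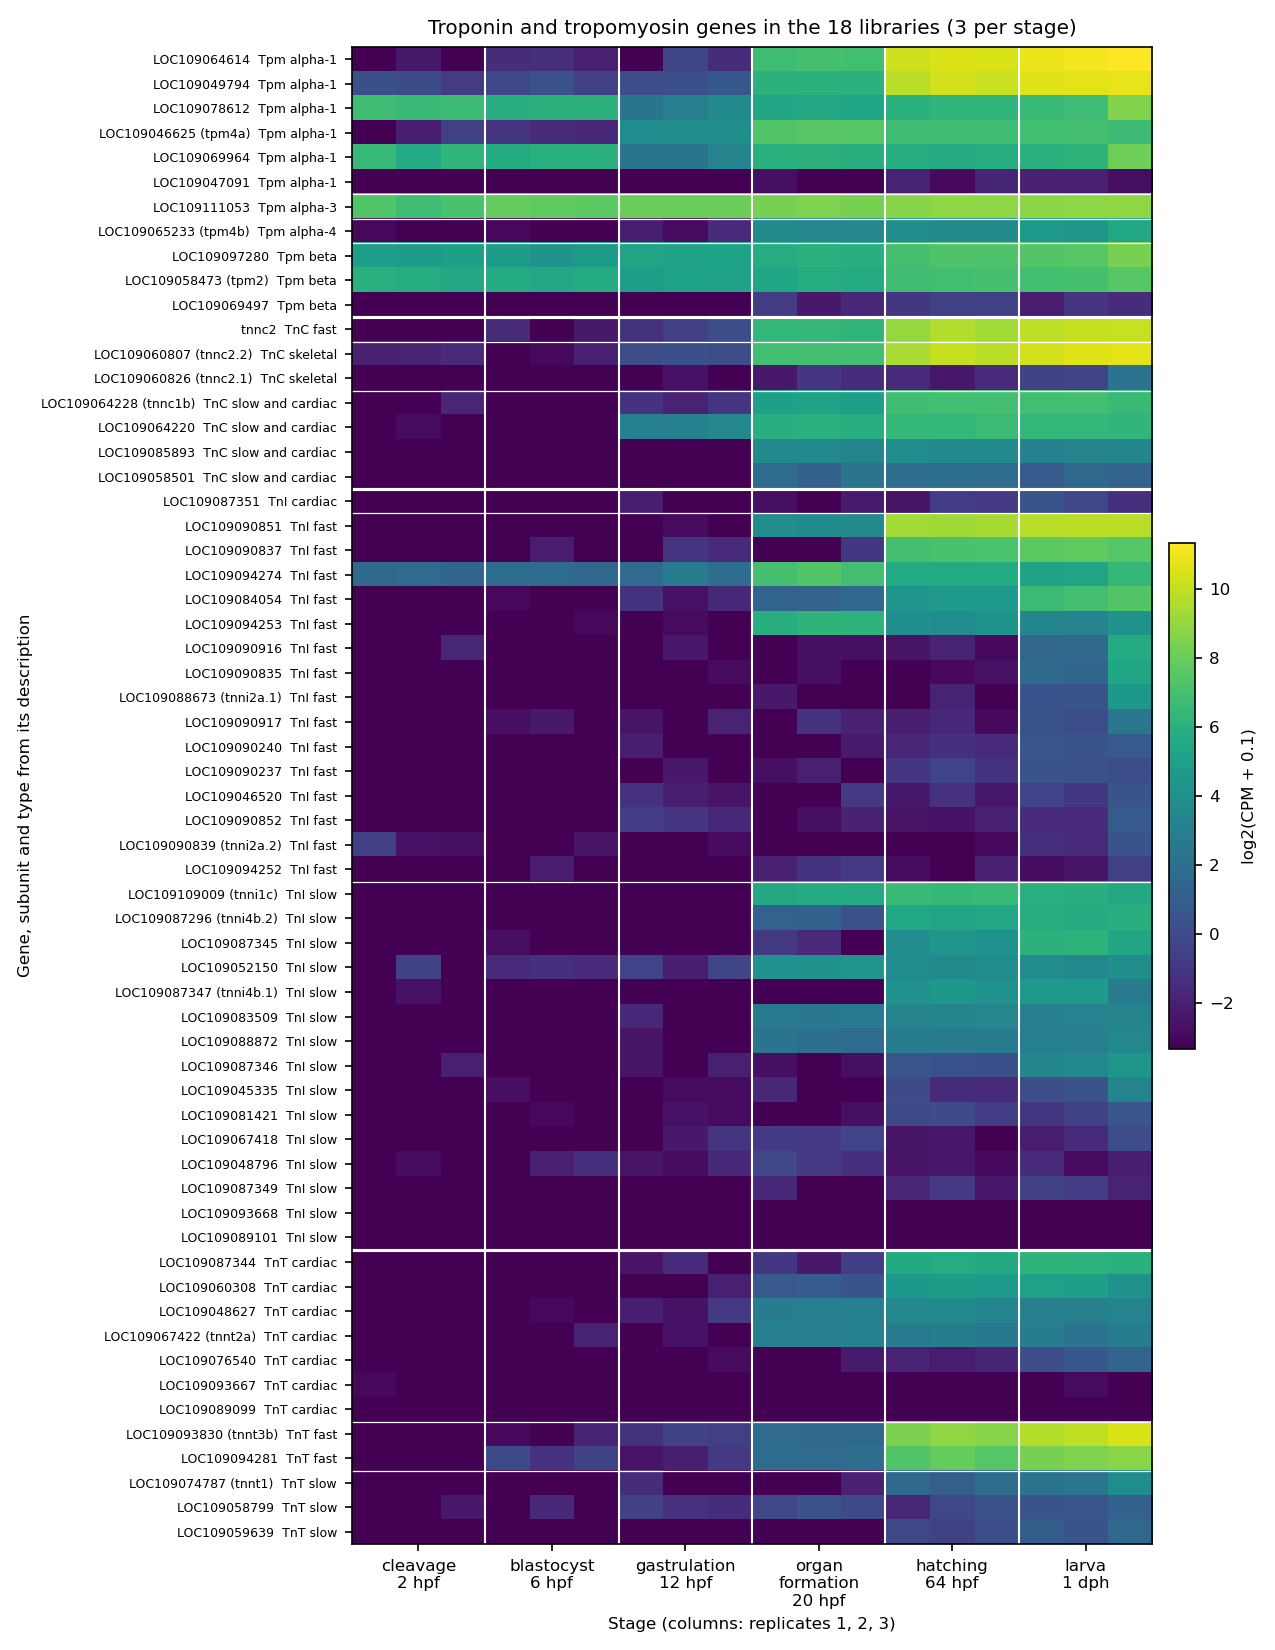
Heat map of log2(CPM + 0.1) for the 61 genes (rows, grouped by subunit and type) in the 18 libraries (columns, 3 per stage). Before gastrulation the 5 bright rows are tropomyosins, most troponin rows brighten at organ formation or hatching, and larva replicate 3, the last column, is brighter than its neighbours in several troponin I rows.

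Of the 61 genes, 53 passed the filter on low counts. All 53 differed among the 6 stages, as did 93.7% of all features tested. From cleavage to blastocyst 3 members rose (15.8% of all features) and 0 fell (6.52% of all features) in edgeR. At an unadjusted p below 0.05, for which the share of all features was not computed, 2 were lower. DESeq2 called 1 lower (8.54% of all features). The rises were those of LOC109111053, of LOC109064614, and of the fast troponin T gene LOC109094281, which had no count at cleavage and read 0.877, 0.321 and 0.653 CPM at blastocyst (at least 18.2-fold above the floor of 3 counts over the stage, adjusted p = 5.9e-05). From blastocyst to gastrulation 19 rose (44.4% of all features) and 4 fell (22.3%). The falls were those of LOC109078612, LOC109069964, LOC109058473 and LOC109094281, the last to 0.0682, 0.13 and 0.457 CPM (adjusted p = 0.017). The call of LOC109094281 was lost in 3 of 28 alternatives, among them the fit of the 2 stages alone and without blastocyst replicate 1. Of the 19 rises, 14 stayed under 1 CPM at gastrulation, and the higher and lower libraries overlapped for 6. Scaling moved this step as a whole. The median log2 change of all features was 0.75 with TMM factors, 0.10 with library totals and -0.08 with library sizes implied by the deposited RPKM. With library totals 34.8% of all features rose and 31.3% fell, with RPKM-implied sizes 30.4% rose and 35.7% fell, and each of these scalings left 12 members that rose. At organ formation the median was 0.25 with TMM factors, 0.59 with library totals and 0.56 with RPKM-implied sizes.

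From gastrulation to organ formation 31 of the 53 rose (28.1% of all features) and 0 fell (19.8% of all features) in edgeR. At an unadjusted p below 0.05, for which the share of all features was not computed, 0 were lower. DESeq2 called 0 lower (19.95% of all features), as did limma with 1 and with 0.1 added to RPKM (17.6% and 18.7%). Of the 31, 29 reached at least 1 CPM at organ formation, and the libraries of both stages overlapped for 1. The median log2 change was 3.14 over the members and 0.25 over all features. From organ formation to hatching 24 rose (17.4%) and 4 fell (12.2%), with medians of 1.31 and -0.01. With RPKM-implied sizes 27.4% of all features rose and 4.19% fell at this step, with a median of 0.40. The 4 falls were those of LOC109094253, LOC109094274 and LOC109046625, described below, and of the slow troponin I gene LOC109048796, which stayed below 1 CPM and lost its call in 18 of 24 alternatives. From hatching to larva 20 rose (5.32%) and 1 fell (6.13%), with medians of 0.68 and 0.00. Without larva replicate 3, 10 rose (2.77% of all features) and 2 fell (4.41%). All 10 were among the 20. The other 10 rises, not called without that library, were LOC109090917, LOC109097280, tnnc2, LOC109045335, LOC109060826, LOC109064614, LOC109065233, LOC109076540, LOC109078612 and LOC109088673. Without hatching replicate 1, 11 rose (2.40% of all features), and without hatching replicate 3, 10 rose (2.38%). Both of these fits keep hatching replicate 2, the hatching library that stood apart. Without that library 3.41% of all features rose. Its part in these counts was not tested, and every such fit also has 1 library fewer.

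Of the 58 genes with any count, 40 had their highest stage mean in larvae, 10 at hatching and 8 at organ formation. Among all 48456 protein-coding genes with a count, 31.8% peaked in larvae, 11.6% at hatching and 11.2% at organ formation. Without larva replicate 3, 38 genes peaked in larvae, 9 at hatching, 8 at organ formation, 1 at gastrulation and 2 at cleavage.

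Among the tropomyosins, the alpha-1 chains LOC109064614 and LOC109049794 had the highest RPKM of the subunit at hatching and in larvae. LOC109064614 read 0, 0.101 and 0 CPM at cleavage and 0, 0.749 and 0.281 at gastrulation. At organ formation it read 109, 136 and 118 CPM, at hatching 1182, 1483 and 1474 and in larvae 1899.8, 2134 and 2581. The last 3 stages did not overlap. It rose at organ formation (8.19 ± 0.35, adjusted p = 1.1e-12, 352-fold) and at hatching (3.51 ± 0.24, adjusted p = 2.9e-09). Its rise at blastocyst rested on 30 counts against 3 and was lost in 15 of 27 alternatives. The larval step was 1.60-fold with an adjusted p of 0.049, and this call was lost in 16 of 28 alternatives, among them without larva replicate 3.

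LOC109049794 was present at a low level from the start, at 1.07, 0.907 and 0.489 CPM at cleavage and 1.02, 1.11 and 1.51 at gastrulation. It read 67.2, 68.7 and 66.2 CPM at organ formation, 900.3, 1268 and 1100.0 at hatching and 1591, 1716 and 1842 in larvae. It rose 55.5-fold at organ formation (adjusted p = 5.2e-15), 16.2-fold at hatching (adjusted p = 3.4e-13) and 1.58-fold in larvae (adjusted p = 0.0053). The larval call was kept without larva replicate 3 and lost without hatching replicate 1. In the larva libraries LOC109064614 made up 43.1, 44.1 and 43.3% of tropomyosin RPKM and LOC109049794 40.7, 40 and 34.8%.

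Another pair of alpha-1 genes, LOC109078612 and LOC109069964, were abundant at cleavage and fell at gastrulation. LOC109078612 read 113, 98.5 and 105 CPM in cleavage embryos, 57.8, 68.7 and 67.1 in blastocysts and 5.18, 7.62 and 12.2 in gastrulae. LOC109069964 read 94.4, 50.4 and 79.9 CPM in cleavage embryos, 51.1, 62.4 and 63.6 in blastocysts and 4.91, 4.85 and 9.25 in gastrulae. Both fell at gastrulation, by 2.92 and 3.20 on the log2 scale (SE 0.44 and 0.50, adjusted p = 4e-05 and 6.8e-05), and the libraries did not overlap. Both rose again at organ formation, to 39, 46.1 and 39.8 and to 61.9, 69.2 and 61.8 CPM (adjusted p = 0.00055 and 8.6e-05).

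At hatching LOC109078612 read 65.6, 78.4 and 76.5 CPM and LOC109069964 53.2, 51 and 56 CPM. In larvae replicate 3 lay far above the others. LOC109078612 read 98.1, 110.1 and 374 CPM and LOC109069964 66.7, 73.6 and 279 CPM, so replicate 3 was 3.6 and 3.98 times the mean of the others. LOC109069964 did not pass the test at this step (adjusted p = 0.066). LOC109078612 passed it (adjusted p = 0.037), but the call was lost in 12 of 28 alternatives, among them without larva replicate 3.

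The alpha-3 gene LOC109111053 was abundant at every stage. It read 166, 112 and 141 CPM at cleavage, 234, 216 and 200.2 at blastocyst, 268, 266 and 262 at gastrulation and 328, 365 and 323 at organ formation. It read 405, 455 and 454 CPM at hatching and 438, 453 and 484 in larvae. It rose 1.55-fold at blastocyst (adjusted p = 0.0003), a call lost with RPKM-implied library sizes and in both limma fits. Its gastrulation rise of 1.22-fold (adjusted p = 0.027) turned to a fall of 0.37 on the log2 scale with library totals and of 0.70 with RPKM-implied sizes. At organ formation and hatching it rose 1.28-fold and 1.29-fold (adjusted p = 0.014 and 0.016), and both calls were lost on leaving out some single libraries. Per kilobase it held 64.1% ± 2.4 of tropomyosin RPKM at gastrulation and 5.44, 5.14 and 4.45% in the larva libraries.

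The beta chains LOC109058473 (tpm2) and LOC109097280 were likewise present from cleavage. LOC109058473 read 64.1, 52.8 and 46.8 CPM at cleavage, 30.1, 36 and 34.2 at gastrulation, 117, 120.3 and 134 at hatching and 120.0, 135 and 184 in larvae. It fell at gastrulation (-0.57 ± 0.15, adjusted p = 0.0018) and rose 2.59-fold at hatching (adjusted p = 3.4e-07). Its smaller rise at organ formation was lost without gastrulation replicate 1 or 3.

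LOC109097280 read 28.8, 27.7 and 32.5 CPM at cleavage, 26.9, 19 and 24.8 at blastocyst, 37, 35.7 and 36.9 at gastrulation, 54.6, 65.9 and 57.8 at organ formation and 129, 155 and 158 at hatching. It rose 1.63-fold at organ formation and 2.48-fold at hatching (adjusted p = 0.003 and 1.1e-05). Its call as higher at gastrulation reversed in direction under other scalings, to -0.0281 with library totals. In larvae it read 168, 177 and 316 CPM, and its call there was lost without larva replicate 3. The third beta gene, LOC109069497, did not exceed 0.592 CPM.

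LOC109046625 is described as an alpha-1 chain but carries the RefSeq symbol tpm4a, in zebrafish the gene of a tropomyosin needed for the heartbeat. It read 0.379, 0.247 and 0.218 CPM at blastocyst, 14.1, 15.2 and 15.7 at gastrulation and 166, 181 and 176 at organ formation. It rose 53.3-fold and then 11.6-fold (adjusted p = 1.9e-12 and 5.7e-11). It was highest at organ formation, and at hatching it read 116, 113 and 108 CPM. This fall (adjusted p = 0.019) was lost with RPKM-implied sizes and, among others, without any 1 of the 3 hatching libraries, and larvae read 119, 128 and 107 CPM. LOC109065233 (tpm4b), the alpha-4 gene, first passed 10 CPM at organ formation, with 11.9, 11 and 11.1, and read 23, 21.4 and 44.4 CPM in larvae.

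**Figure D2:**
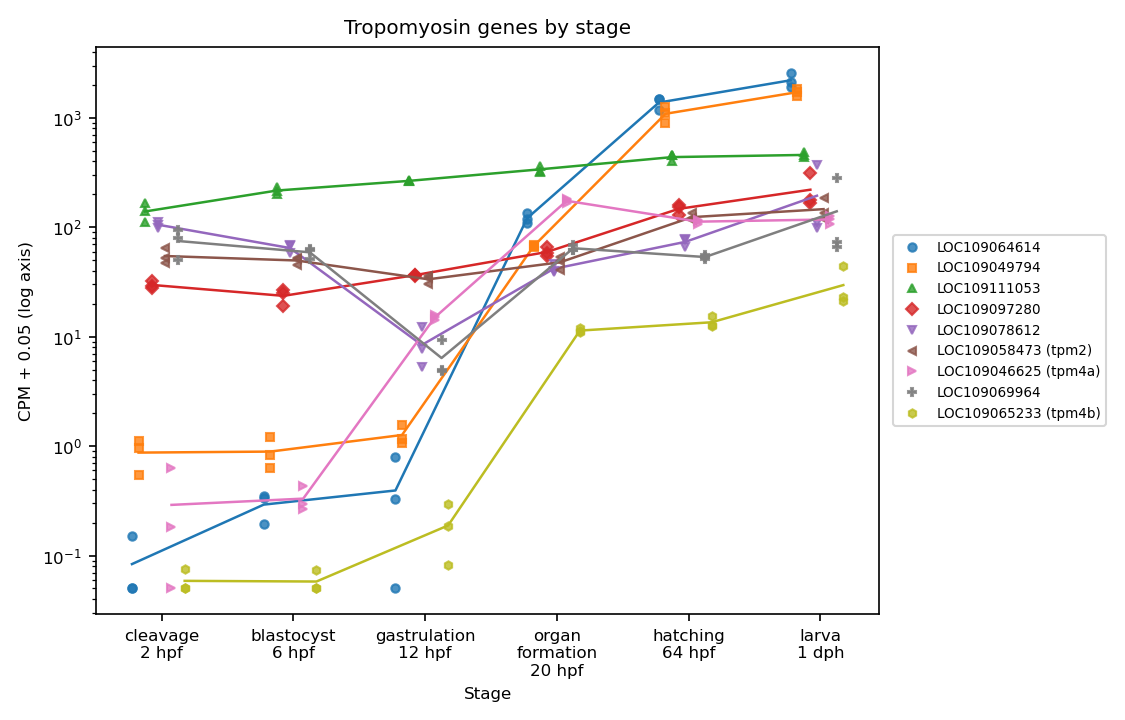
CPM + 0.05 (log axis) of 9 tropomyosin genes at 6 stages, with points for libraries and lines through stage means. LOC109064614 and LOC109049794 overtake the other genes by hatching, LOC109078612 and LOC109069964 are low at gastrulation, and LOC109111053 stays between 112 and 484 CPM.

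Of the troponin C genes, those of fast or skeletal type made up most of the subunit's RPKM from organ formation on. LOC109060807 had the highest mean RPKM of all members at organ formation, hatching and in larvae, with 425, 498 and 556 RPKM in larvae. Its range over libraries overlapped those of the next genes in order, LOC109094274 and LOC109111053 at organ formation and LOC109064614 at hatching and in larvae. Within libraries it exceeded LOC109111053 in every organ formation library and LOC109064614 in every larva library. It was below LOC109094274 in organ formation replicate 2 (31.8 against 32.5 RPKM) and below LOC109064614 in hatching replicate 1 (219 against 222 RPKM). LOC109060807 (tnnc2.2) stayed below 1 CPM at cleavage and blastocyst and read 1.02, 1.07 and 0.985 CPM at gastrulation, 120.1, 128 and 121 at organ formation, 703, 1072 and 897 at hatching and 1344, 1567 and 1699.9 in larvae. The gene tnnc2 (identifier 109104752) read 0.341, 0.586 and 1.02 CPM at gastrulation, 82.6, 87.3 and 76 at organ formation, 524, 807 and 641 at hatching and 929, 1073 and 1118 in larvae. Both were ordered by stage with no overlap between neighbouring stages from gastrulation on. LOC109060807 rose 119.5-fold, 7.25-fold and 1.73-fold over these 3 steps (adjusted p = 1.5e-15, 5e-11 and 0.0017), and its larval call was kept without larva replicate 3, at a log2 change of 0.69. For tnnc2 the folds were 126, 8.02 and 1.58 (adjusted p = 8.3e-12, 2e-08 and 0.044), and its larval call was lost in 11 of 28 alternatives, among them without larva replicate 3. The gene next to LOC109060807, LOC109060826 (tnnc2.1), stayed below 1 CPM except in larva replicate 3, which read 4.67.

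The 4 genes named for slow skeletal and cardiac troponin C rose at organ formation, as did 28.1% of all features. None passed the test between hatching and larva, a step at which only 5.32% of all features rose and 6.13% fell. LOC109064220, with no count at blastocyst, was the only troponin with a mean above 5 CPM at gastrulation. It read 7.91, 8.66 and 11 CPM at gastrulation, 61.6, 66.6 and 56.2 at organ formation, 85.8, 87.6 and 103 at hatching and 82.1, 82.8 and 80.6 in larvae. Gastrulation was at least 380.4-fold above the floor of 3 counts over the blastocyst libraries (adjusted p = 3.6e-15), and the following steps were 6.68-fold and 1.5-fold (adjusted p = 7.3e-12 and 0.002).

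LOC109064228 (tnnc1b) read 0.341, 0.163 and 0.352 CPM at gastrulation, 30.5, 34.1 and 29.9 at organ formation, 112, 124 and 126 at hatching and 117, 124 and 98.8 in larvae. It rose 110.4-fold and 3.84-fold (adjusted p = 2.6e-13 and 8.5e-08), and larvae and hatching overlapped. LOC109085893 had no count at gastrulation and read 11.8, 12.3 and 9.62 CPM at organ formation, at least 277-fold above the floor of 3 counts over the stage (adjusted p = 1.1e-10). LOC109058501, which RefSeq calls a pseudogene, stayed below 5 CPM.

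Troponin T stayed below 10 CPM per gene through organ formation, and its fast genes rose at organ formation, at hatching and in larvae. The fast genes were LOC109093830 (tnnt3b) and LOC109094281. LOC109093830 stayed below 1 CPM at cleavage and blastocyst and read 0.341, 0.651 and 0.598 CPM at gastrulation, 3.39, 3.22 and 2.84 at organ formation, 345, 483 and 402 at hatching and 807, 961 and 1451 in larvae. LOC109094281 read 3.6, 3.42 and 3.73 CPM at organ formation, 166, 231 and 177 at hatching and 325, 358 and 432 in larvae. Every hatching library of each gene lay far above every organ formation library. At organ formation LOC109093830 rose 5.94-fold and LOC109094281 16.4-fold (adjusted p = 3.2e-05 and 1.2e-07). LOC109093830 rose 130.0-fold at hatching (7.02 ± 0.29, adjusted p = 2.8e-11) and 2.62-fold in larvae (adjusted p = 0.00042). LOC109094281 rose 53.4-fold and 1.94-fold at these steps (adjusted p = 1.1e-11 and 0.0026). The larval calls of both were kept without larva replicate 3.

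Of the 5 tested genes described as cardiac troponin T, 3 rose at gastrulation while under 1 CPM (44.4% of all features). At organ formation 3 rose (28.1%), at hatching 2 (17.4%) and in larvae 1 (5.32%). The gastrulation calls were lost in 8 of 27 alternatives for LOC109060308, 3 of 27 for LOC109087344 and 2 of 27 for LOC109048627. LOC109067422 (tnnt2a), the zebrafish counterpart of which is mutated in silent heart fish that lack a heartbeat, read 7.87, 8.13 and 8.67 CPM at organ formation, 6.28, 7.45 and 5.92 at hatching and 7.21, 4.7 and 7.1 in larvae. LOC109048627 read 7.2, 8.08 and 8.46 CPM at organ formation, 11.5, 12.3 and 9.65 at hatching and 8.25, 8.28 and 9.39 in larvae. The list of other cardiac genes summed to 70.6 to 79.5 CPM at organ formation and 98.4 to 118 at hatching. LOC109067422 and LOC109048627 rose at organ formation (adjusted p = 1.7e-08 and 6.2e-09), and neither passed the test at hatching or in larvae. LOC109087344 stayed below 1 CPM through gastrulation, read 0.411, 0.0991 and 0.526 CPM at organ formation, 47.1, 53.1 and 46.1 at hatching and 74.8, 71.5 and 66.7 in larvae, and rose 141-fold at hatching (7.14 ± 0.35, adjusted p = 9.9e-11). LOC109060308 read 0, 0 and 0.141 CPM at gastrulation, 1.59, 1.78 and 1.31 at organ formation, 22.7, 26.4 and 23.5 at hatching and 34, 30.4 and 18.6 in larvae. It rose 33.3-fold at organ formation and 15.5-fold at hatching (adjusted p = 2.2e-06 and 4.4e-08). The first of these folds is uncertain, as it rests on 4 gastrulation counts, all in replicate 3.

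A further gene described as cardiac, LOC109076540, reached 2.51 CPM in larva replicate 3 and its call in larvae was lost in 5 of 26 alternatives, among them without that library. LOC109093667 and LOC109089099 had 2 and 0 counts in all. The slow genes were low throughout. LOC109074787 (tnnt1) read 2.9, 2.04 and 3.49 CPM at hatching and 4.88, 5.23 and 13.9 in larvae, and LOC109058799 and LOC109059639 stayed below 3 CPM. With 3 counts at organ formation, the ratio of hatching to organ formation for tnnt1 was 55 (95% counting interval 18.6 to 268) (adjusted p = 0.00023).

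The fast troponin I genes did not share 1 course. LOC109090851 became the most abundant. It read 13.8, 12.8 and 12.2 CPM at organ formation, 643, 618 and 683 at hatching and 875, 917 and 896 in larvae, with 1 count over the 3 gastrulation libraries and none before. It rose 50-fold at hatching (5.64 ± 0.12, adjusted p = 9e-15) and 1.38-fold in larvae (adjusted p = 0.0048), and the larval call was kept without larva replicate 3.

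LOC109090837 was near 0 at organ formation. It read 0, 0 and 0.42 CPM at organ formation, 129, 137 and 144 at hatching and 204, 218 and 177 in larvae. It rose 975-fold at hatching (9.92 ± 0.48, adjusted p = 3.4e-10) and did not pass the test in larvae (adjusted p = 0.21), although the libraries of the last 2 stages did not overlap. LOC109084054 read 2.47, 2.48 and 3.15 CPM at organ formation, 20, 24.2 and 23.7 at hatching and 101, 126 and 172 in larvae. It rose 13.1-fold, 8.38-fold and 5.88-fold over the 3 steps (adjusted p = 4.9e-08, 3.3e-09 and 1.2e-07), the last also without larva replicate 3.

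LOC109094274 and LOC109094253 peaked at organ formation and then fell. LOC109094274, which alone among the troponins had a mean of at least 1 CPM at cleavage, read 3.24, 3.42 and 2.64 CPM there and 3.41, 6.12 and 3.73 at gastrulation. It read 130.3, 161 and 126 CPM at organ formation, 49.5, 50.6 and 51.9 at hatching and 34.7, 37.4 and 85.7 in larvae. It rose 31.4-fold at organ formation (adjusted p = 1.9e-10) and fell by 1.46 ± 0.26 on the log2 scale at hatching (adjusted p = 0.00027).

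LOC109094253 had 1 count over the gastrulation libraries and read 58.9, 72.5 and 70.5 CPM at organ formation, 14.6, 13.2 and 18.2 at hatching and 9.96, 8.84 and 17.5 in larvae. The ratio of organ formation to gastrulation was 4971 (95% counting interval 892 to 196409) (adjusted p = 1.5e-13), and at hatching it fell by 2.13 ± 0.23 (adjusted p = 5.4e-07). A further fall in larvae passed the test only without larva replicate 3 (-0.73). The share of this pair in troponin I RPKM was 41.3% ± 2.87 and 26.5% ± 1.74 at organ formation and 4.03% ± 0.112 and 1.61% ± 0.203 at hatching. LOC109090851 went from 4.78% ± 0.588 to 63.4% ± 0.84 over the same step.

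A set of fast troponin I genes was detected mainly in larvae, with most of its counts in larva replicate 3. LOC109090835 had no count at cleavage and blastocyst, read 0, 0 and 0.0352 CPM at gastrulation, 0, 0.0496 and 0 at organ formation and 0, 0.0318 and 0.0623 at hatching, where it had 3 counts, and read 3.1, 2.67 and 40.8 CPM in larvae. LOC109090916 read 0.0676, 0.159 and 0.0311 CPM at hatching and 2.75, 3.3 and 51.1 in larvae. LOC109088673 (tnni2a.1) read 0, 0.159 and 0 CPM at hatching and 1.2, 1.23 and 22.7 in larvae. In each case larva replicates 1 and 2 lay close together and replicate 3 was 14.1, 16.9 and 18.7 times their mean. The ratio of larva to hatching was 436 (95% counting interval 149 to 2116) for LOC109090835 (adjusted p = 0.00074), and LOC109090916 was 221-fold above it (adjusted p = 0.0013). Both calls were kept without larva replicate 3, at log2 changes of 6.28 and 5.04, and lost where the 6 libraries of these stages were fitted alone. The call of LOC109088673 (adjusted p = 0.011) was lost without larva replicate 3. The remaining fast genes, LOC109090917, LOC109090240, LOC109090237, LOC109046520, LOC109090839, LOC109090852 and LOC109094252, stayed below 6 CPM in every library.

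**Figure D3:**
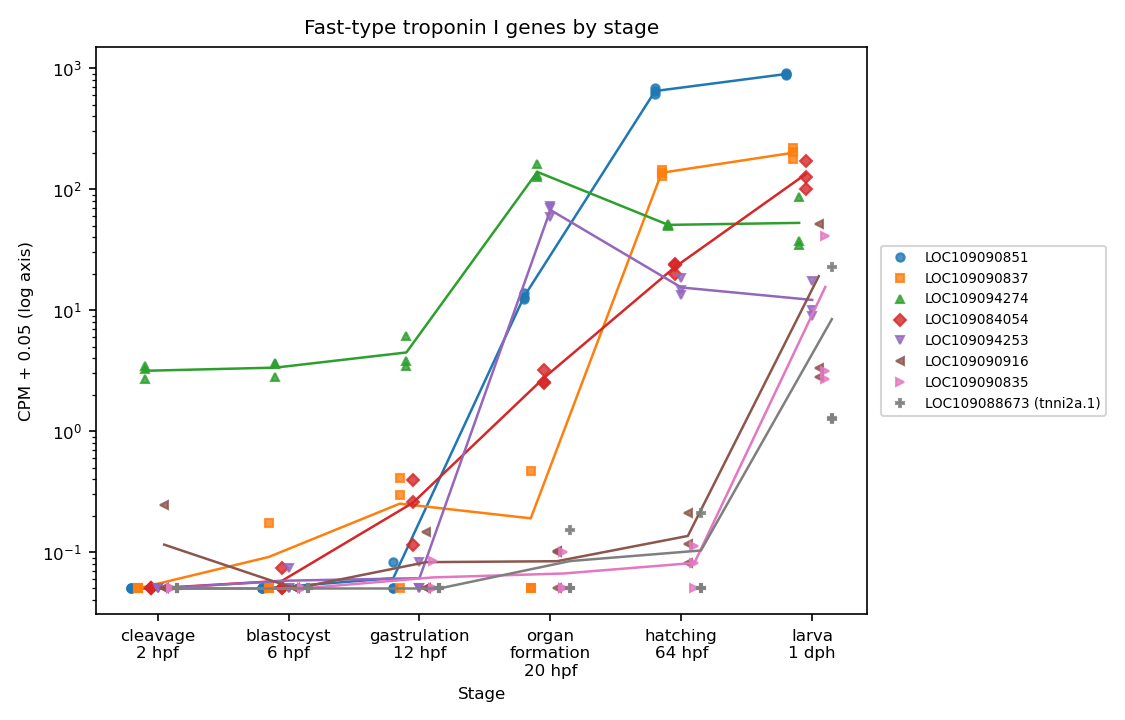
CPM + 0.05 (log axis) of the 8 fast-type troponin I genes with the highest mean level, with points for libraries and lines through stage means. LOC109094274 and LOC109094253 peak at organ formation, LOC109090851 and LOC109090837 climb at hatching, and for the 3 lowest genes 1 larva library lies far above the other 2.

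Among the slow troponin I genes, LOC109109009 (tnni1c) led at organ formation. It had no count before that stage and read 45.2, 51 and 49.8 CPM at organ formation, 92.5, 86.6 and 97.1 at hatching and 62.8, 60.5 and 45.7 in larvae. Organ formation was at least 1197-fold above the floor of 3 counts over the gastrulation libraries (adjusted p = 1.1e-13). It rose 1.89-fold at hatching (adjusted p = 7.8e-05) and fell in larvae (-0.71 ± 0.13, adjusted p = 0.0026), the only tested member to do so with all libraries. The larval fall was kept without larva replicate 3.

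Other slow genes were low at organ formation and higher at hatching or in larvae. LOC109087296 (tnni4b.2) read 2.31, 2.28 and 1.16 CPM at organ formation, 44.1, 41.5 and 43.2 at hatching and 56.8, 52.3 and 57.5 in larvae, and rose 22.4-fold at hatching (adjusted p = 5.3e-10). With no count at gastrulation, it had also risen at organ formation, at least 47.1-fold above the floor of 3 counts over the stage (adjusted p = 2.1e-08). LOC109087345 read 0.463, 0.248 and 0, then 14.4, 20.1 and 17.5, then 69.5, 72.2 and 39.1 CPM at these stages. It rose 73.2-fold at hatching and 3.48-fold in larvae (adjusted p = 4.5e-08 and 0.00085), the latter also without larva replicate 3. It was called at organ formation too, on 14 counts against 0 (adjusted p = 0.011, lost in 3 of 27 alternatives).

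LOC109087347 (tnni4b.1) had no count at organ formation and read 16.6, 22 and 16.9 CPM at hatching and 23.9, 23.6 and 6.48 in larvae. Hatching was at least 362-fold above the floor of 3 counts over the organ formation libraries (adjusted p = 4.7e-07). LOC109087346 read 1.38, 1.21 and 1.09 CPM at hatching and 10.3, 11.4 and 21.2 in larvae, and rose 11.6-fold (adjusted p = 0.00011), also without larva replicate 3. At hatching its ratio to organ formation was 35.9 (95% counting interval 9.71 to 300.1) (adjusted p = 0.00018).

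LOC109052150 was highest at organ formation, at 16.7, 17.5 and 19.8 CPM, and read 14.2, 12.4 and 13.5 at hatching (adjusted p = 0.47) and 13.3, 11.5 and 14.9 in larvae. LOC109083509 and LOC109088872 ran between 3.36 and 11.5 CPM from organ formation on. LOC109045335 exceeded 2 CPM in larva replicate 3 only, where it read 9.79. The other slow genes, LOC109048796, LOC109067418, LOC109081421 and LOC109087349, stayed below 2 CPM, and LOC109093668 and LOC109089101 had no count. The 1 gene described as cardiac troponin I, LOC109087351, did not exceed 1.32 CPM in any library.

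Compared per kilobase within libraries, the fast share of troponin I and T was higher, and the slow and cardiac share of troponin C lower, at each later stage from organ formation to larva, with no overlap between libraries. Fast genes held 26.6, 24.2 and 23.1% of troponin T RPKM at organ formation, 84.1, 86.9 and 85.9% at hatching and 89, 91.1 and 93.6% in larvae. Genes described as cardiac held 72.9% ± 1.49, 13.6% ± 1.3 and, by larva library, 10.2, 8.33 and 5.41% at these stages. Troponin T thus went from mostly cardiac-type to mostly fast-type RPKM between organ formation and hatching. The cardiac-type sum itself was higher at hatching, reading 18.1 ± 1 CPM at organ formation and 90.8 ± 7.56 at hatching.

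In troponin I the fast share was 73.7% ± 1.6, 83.3% ± 0.413 and, by larva library, 85, 86 and 88.8%, and the rest was almost all slow. In troponin C the slow and cardiac share was 35.3% ± 0.445, 13.8% ± 2.22 and, by larva library, 8.82, 8.02 and 6.63%. Among tropomyosins the share of genes described as alpha-1 was 48.8% ± 1.41 at cleavage, 34.9% ± 3.78 at blastocyst and 10.7% ± 2.2 at gastrulation. From organ formation on it was 58.7% ± 0.337, 85.3% ± 1.06 and, by larva library, 88.7, 89.1 and 88%. At cleavage it came mostly from LOC109078612 and LOC109069964 (29.5% ± 2.39 and 18.9% ± 3.31). The share includes LOC109046625 (tpm4a), which held 4.9% ± 0.136 of tropomyosin RPKM at gastrulation and 18.6% ± 0.63 at organ formation.

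**Figure D4:**
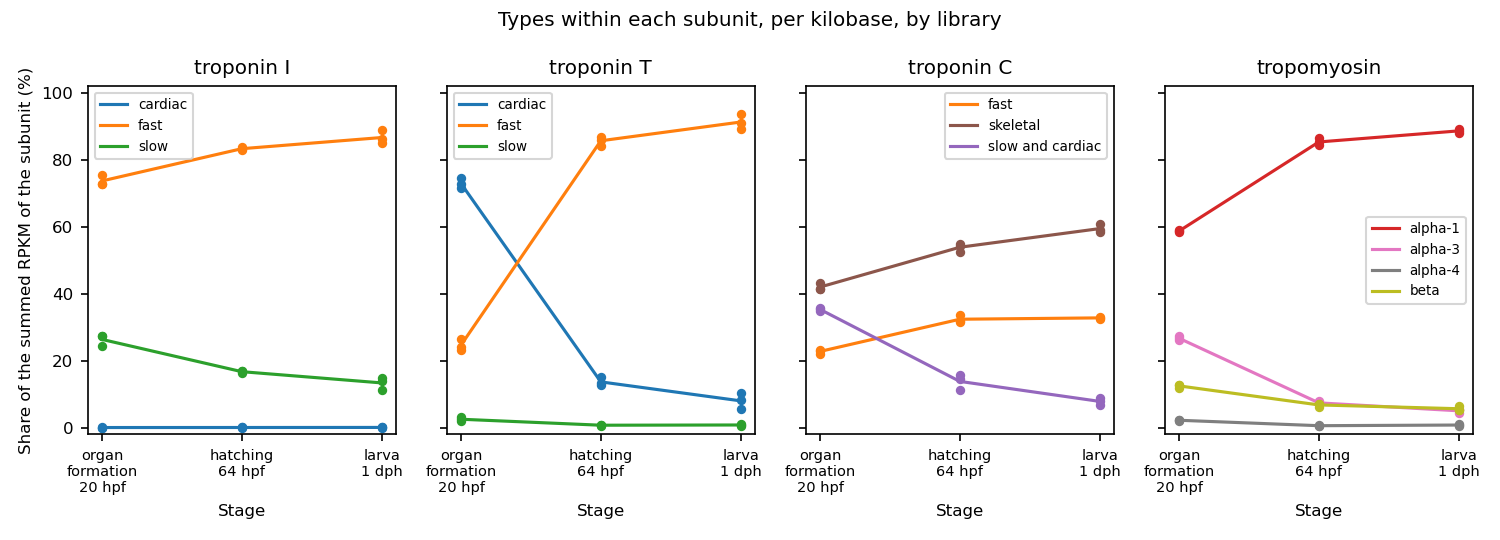
Share (%) of the summed RPKM of each subunit held by each type at organ formation, hatching and larva, with points for libraries and lines through stage means. The mean fast troponin T share runs from 24.6% to 85.6% to 91.2%, while the cardiac troponin T and the slow and cardiac troponin C lines descend.

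Ratios of a fast to a slow gene are given per kilobase as a description. The exact permutation test run on them cannot go below p = 0.1 with 3 against 3 libraries, so its p-values are left out. The genes are those with the highest mean RPKM over all libraries and do not lead at each stage. For troponin I the genes were LOC109090851 and tnni1c, and their mean log2 RPKM ratio was -1.69 ± 0.17 at organ formation, 3.04 ± 0.02 at hatching and 4.23 ± 0.26 in larvae. At organ formation LOC109090851 was not the leading fast gene. There it read 2.85, 3.18 and 2.8 RPKM and LOC109094274 21.8, 32.5 and 23.3 RPKM, against 7.99, 10.9 and 9.74 RPKM of tnni1c, so that fast genes exceeded tnni1c at that stage too. In larvae the slow gene LOC109087345 read 18.1, 18.9 and 10.5 RPKM and tnni1c 17, 16.4 and 12.8 RPKM. For troponin C the genes were tnnc2 and tnnc1b, with log2 ratios of 1.09 ± 0.05, 2.13 ± 0.25 and 2.91 ± 0.27 at these stages. At organ formation the slow and cardiac gene LOC109064220 stood above tnnc1b, with 11.7, 15.3 and 11.8 RPKM against 6.29, 8.51 and 6.83 RPKM. For troponin T, tnnt3b over tnnt1, the log2 ratio was 7.39 ± 0.59 at hatching and 7.38 ± 0.44 in larvae, and the libraries overlapped.

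Larva replicate 3 was compared with its fellow libraries over all members. Of 56 members with at least 10 counts in larvae, 16 were more than 2-fold above both other larva libraries in replicate 3, against 4.43% of all such features. Of these 16, 12 are troponin I genes, 2 are tropomyosins, 1 is a troponin C and 1 a troponin T. Another 3 members were more than 2-fold below both, against 9.04% of features. No other library had more than 3 members above its fellows. Of the 12 troponin I genes, 9 are fast and 3 slow. Members above 10 CPM were among the 16, as LOC109069964, LOC109078612 and LOC109094274 had ratios of replicate 3 to the mean of the others of 3.98, 3.6 and 2.38. The ratio was 1.83 for LOC109097280, 1.64 for tnnt3b, 1.11 for LOC109049794 and 1 for LOC109090851.

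**Figure D5:**
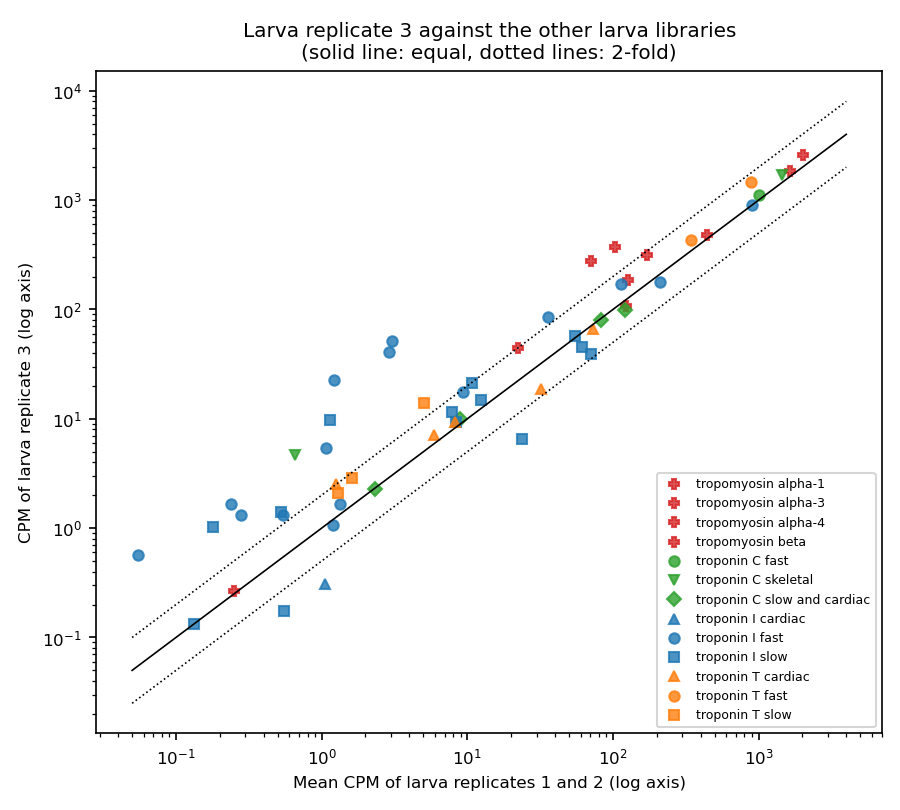
CPM in larva replicate 3 against the mean CPM of larva replicates 1 and 2 (both axes log) for members with at least 10 counts in larvae. Among members above the upper 2-fold line are the 16 that were more than 2-fold above both other larva libraries, 9 of them fast troponin I genes. LOC109090851 and LOC109049794 lie near the line of equal levels.

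Other contractile lists were read in the same libraries, and their part in the result was not tested. The fast fibre list (62 genes, 3 without a count) read 20184, 21988 and 22758 CPM in larvae. Summed smooth muscle and non-muscle contractile genes (64 genes, 2 without a count) read 1211, 1222 and 1644 CPM. Thin filament partners (36 genes, none at 0) read 13272, 13784 and 17450.5 CPM. Cardiac markers (25 genes, 1 without a count) read 122, 127 and 140.0 CPM, and the list for slow fibres (3 genes) read 108, 111 and 87. Nearly all of the slow list came from prospero homeobox 1 genes, LOC109108194 (61.4, 65.5 and 52.1 CPM) and LOC109108193 (46.3, 45.7 and 34.3 CPM). Its sum is therefore not a level of slow-fibre contractile genes.

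The order of genes in RefSeq showed that many members lie side by side. Of 50 placed members 30 lay within 5 genes of another member, in 11 runs. Members of a run often differed in course. In the run of LOC109090835, LOC109090839, LOC109090237 and LOC109090837, all fast troponin I, the last read 137 ± 7.48 CPM at hatching and the others less than 1 CPM. In the run of LOC109088673, LOC109090917, LOC109090852 and LOC109090851, the last read 648 ± 32.6 CPM and the others less than 1 CPM.

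Fast troponin I and fast troponin T also lie together. LOC109084054, LOC109094274 and tnnt3b form a run, as do LOC109094252, LOC109094253 and LOC109094281. In both runs 1 troponin I gene fell at hatching while the troponin T gene rose. The other troponin I gene of the first run, LOC109084054, rose at hatching too, and LOC109094252 of the second was not tested. Each of the 5 tested genes described as cardiac troponin T lies in a run with a slow troponin I gene. LOC109048627 lies with LOC109048796, LOC109067422 with LOC109067418, LOC109076540 with LOC109052150, LOC109087344 with LOC109087345 and LOC109087349, and LOC109060308 with LOC109081421. LOC109087344 and LOC109087345 both rose at hatching, 141-fold and 73.2-fold. LOC109060308 and LOC109081421 also both rose there, the latter from 0, 0 and 0.0526 CPM to 0.844, 0.955 and 0.529 CPM, a ratio of 45.4 (95% counting interval 7.89 to 1816) (adjusted p = 0.0017). LOC109087349 was not called at hatching. In the remaining runs of this kind no gene rose at hatching, and LOC109048796 was called as lower (lost in 18 of 24 alternatives).

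Other muscle genes give the setting. Of all features, 28.1% rose and 19.8% fell at organ formation, and 17.4% rose and 12.2% fell at hatching. Of 32 tested thin filament partners, which include skeletal actins, nebulins and tropomodulins, 23 rose and 1 fell at organ formation, and 12 rose and 0 fell at hatching (edgeR). The actin LOC109108280 read 0.568 ± 0.389 CPM at gastrulation, 442 ± 18.1 at organ formation and 3489.9 ± 395 at hatching, and the actin LOC109100842 read 9.36 ± 2.16, 121 ± 7.78 and 1855 ± 357 CPM. Of 42 tested fast fibre genes 27 rose and 2 fell at organ formation, and 32 rose and 0 fell at hatching. The myosin regulatory light chain LOC109073317 read 73.7 ± 5.56 CPM at organ formation and 2574 ± 336 at hatching. The parvalbumin LOC109096999, a calcium buffer of fast muscle, read 4.95 ± 1.11 CPM at organ formation and 1482 ± 151 at hatching.

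Of 22 tested myogenic factors 17 rose and 2 fell at gastrulation (44.4% and 22.3% of all features, at a scaling-dependent step). At organ formation 16 of these factors rose and 3 fell (28.1% and 19.8%), and at hatching 3 rose and 8 fell (17.4% and 12.2%). Among them the MyoD gene LOC109050760, a muscle determination factor, read 26 ± 5.95 CPM at gastrulation, 94.6 ± 14.6 at organ formation and 29 ± 2.07 at hatching, and the MEF2C-like gene LOC109059699 read 1.13 ± 0.401, 48.2 ± 5.8 and 38.7 ± 3.08. Their summed level was 81.8 to 111 CPM at gastrulation, 481 to 579 at organ formation and 273 to 317 at hatching. Of 21 tested cardiac genes 14 rose and 0 fell at organ formation (28.1% and 19.8% of all features). At hatching 4 of these cardiac genes rose and 3 fell, near the shares of all features (17.4% and 12.2%). In that list the cardiac-type myosin-binding protein C gene LOC109102750 read 6.21 ± 1.45 CPM at organ formation and 29.5 ± 5.49 at hatching, and the TBX5-A gene LOC109077201 read 13.3 ± 0.869 and 13.5 ± 0.328. The list for slow fibres held 3 genes, the more abundant being prospero homeobox 1 genes, and 2 were tested. Both rose at gastrulation, organ formation and hatching, LOC109108194 from 1.1 ± 0.392 CPM at gastrulation to 74.2 ± 8.14 at hatching and LOC109108193 from 4.03 ± 0.539 to 54.5 ± 3.97. Of 58 tested smooth muscle and non-muscle genes 31 rose and 13 fell at gastrulation, against 44.4% and 22.3% of all features at this scaling-dependent step. From blastocyst to gastrulation the calponin gene LOC109056361 went from 259 ± 19.6 up to 396 ± 62.4 CPM. The calponin gene LOC109106997 went from 309 ± 20.3 down to 209.7 ± 11 CPM. At hatching these genes read 62.7 ± 2.77 and 47.2 ± 7.08 CPM. All these lists were chosen with results of these libraries known.

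The 8 genes that did not pass the filter were LOC109090839 with 75 counts over all libraries, LOC109090852 with 89, LOC109094252 with 46, LOC109047091 with 22 and LOC109093667 with 2. LOC109093668, LOC109089099 and LOC109089101 had 0.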

How the data were processed

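RNA of 18 libraries, 3 for each of 6 stages, was sequenced after ribosomal RNA depletion with a strand-specific kit, per the labels' protocols. Per the submitters' processing notes, the authors' tools included edgeR, featureCounts, HISAT2 and StringTie 1.3.3b. Settings, genome build and the treatment of multiply matching reads: not given in the sources used here. The deposited counts are raw whole numbers of reads per feature. The deposited RPKM values were scaled by the authors to length and library size, and the labels do not say what size.

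The members and lists were chosen with earlier results of these data known. Counts were fitted with edgeR 4.0.16 in R 4.3.3 (filterByExpr, TMM factors, 1 coefficient per stage, quasi-likelihood F tests with robust dispersions). Adjacent stages were compared, and p-values were adjusted over all 69265 features tested. CPM were used for levels across stages and RPKM within a library to compare genes. A fold against a stage with 0 counts was computed against 3 counts over the stage, and with 1 to 3 counts a 95% counting interval is given. Both cover counting error only. The script was tested on simulated data. Values by library, at the stages described, are given for the 3 most abundant members of each subunit, the 3 largest rises and falls of each step above 10 CPM, and LOC109090835; other values were chosen after they were seen. Replicates differed by more than sampling noise, and none was left out. Replicate numbers did not pair the libraries. Alternatives used DESeq2 1.42.0, limma 3.58.1, other scalings, filters and samples. Gene names and gene order came from a RefSeq table of another carp assembly, so no coordinates or sequences are given.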

Additional observations from a re-analysis of the deposited data

How the results depend on the processing

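Of the 106 calls of members over the 5 steps, 65 were kept under every alternative that tested them and 41 were lost under at least 1. Shares of all features follow in brackets. The number of members higher at blastocyst (3) became 5 with DESeq2 (18.9%), 1 with RPKM-implied library sizes (11.1%), 0 with limma on log2(RPKM + 1) (5.39%) and 1 on log2(RPKM + 0.1) (7.35%). The number lower there (0) became 1 with DESeq2 (8.54%), RPKM-implied sizes (9.35%), limma with 0.1 added (12.8%) and the fit of 2 stages alone (9.94%). The number higher at gastrulation (19) became 12 with library totals (34.8%), 12 with RPKM-implied sizes (30.4%), 2 and 6 with limma (22.0% and 26.2%), and 4 with 2 stages alone (41.1%). All-feature medians at that step were 0.75 with TMM, 0.10 with library totals and -0.08 with RPKM-implied sizes. The number lower at hatching (4) became 2 with RPKM-implied sizes (4.19%) and 2 with each limma fit (7.40% and 7.04%), and the number lower in larvae (1) became 3 with limma on log2(RPKM + 1) (8.31%). At gastrulation LOC109097280 reversed to -0.0281, -0.36, -0.27 and -0.34, and LOC109111053 to -0.37, -0.70, -0.67 and -0.70, with library totals, RPKM-implied sizes and the limma fits. The troponin T ratio change of -0.01 reversed to 0.13 with 0.1 added to RPKM, to 0.24 without larva replicate 3 and to 0.33 without hatching replicate 2. The troponin C ratio change at organ formation, 0.25 with overlapping libraries, was 0.71 without overlap when 0.1 was added to RPKM and reversed to -0.31 without gastrulation replicate 1. The cause of these changes was not tested. Leaving out 1 library at a time gave 2 to 5 members higher (12.2% to 22.5%) and 0 to 2 lower (3.17% to 7.07%) at blastocyst. Leaving 1 out gave 13 to 20 (37.6% to 44.6%) and 3 to 4 (20.8% to 24.55%) at gastrulation. At organ formation it gave 29 to 33 (22.2% to 28.55%) and 0 to 1 (17.0% to 20.7%). It gave 23 to 25 higher (13.6% to 18.2%) and 2 to 5 lower (8.31% to 12.9%) at hatching. In larvae it gave 10 to 21 higher (2.38% to 6.22%) and 1 to 2 lower (3.31% to 6.68%). From 54 to 56 members differed among stages, against all 53 tested with 18 libraries, where 93.7% of all features did. The share of all features was not computed for these fits, whose filter passed more features (71376 to 72412 against 69265). Members higher in larvae numbered 11 without hatching replicate 1 (2.40%), 10 without hatching replicate 3 (2.38%) and 10 without larva replicate 3 (2.77%). Ratio changes ranged from 4.67 to 4.83 and 1.05 to 1.29 for troponin I, -0.19 to 0.33 for troponin T, and -0.31 to 0.61, 0.90 to 1.14 and 0.63 to 0.92 for troponin C. With the replicate number as a block, members higher numbered 3 (14.45%), 17 (43.7%), 31 (27.0%), 24 (16.5%) and 17 (4.36%) over the steps. Members lower there numbered 0 (5.91%), 4 (21.8%), 0 (19.2%), 3 (11.25%) and 1 (5.60%). In that fit 100 of 106 calls were kept. All 53 tested members differed among stages there, as in the main fit, where 93.7% of all features did. Same-numbered libraries did not deviate together (median correlation 0.000373 over 45 pairs, and 4 of 18 libraries correlated best with their own number). Depth limits the members of few counts: 14 of the 19 rises at gastrulation lay under 1 CPM.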
